A study of Mus musculus with 5 samples.

Results

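The alternative activation genes are 9 genes of the response of macrophages to interleukin 4 (IL-4) and interleukin 13 (IL-13): the receptor chains Il4ra and Il13ra1, the transcription factors Stat6 and Klf4, the effectors Retnla, Arg1 and Chil3, and the feedback inhibitors Socs2 and Cish. They were taken from a list by name, and all 9 were found among the 41388 genes of the deposited tables by matching Ensembl IDs to symbols. RNA was sequenced from macrophages sorted out of the mouse aorta. The outer layer gave 3 adventitia libraries, which came from C57BL/6 mice with the genotype ApoE-/-, a knockout of the apolipoprotein E gene, that had eaten a high-fat diet for 28 weeks. For this group 6 mice are named, and live CD64+ cells were sorted from the whole aorta. The 2 intima libraries (what was left of the thoracic aorta once the outer layer had been removed) came from C57BL/6 mice with no genotype label, 5 mice pooled per library, and the sort took live CD64+ CD11c+ MHC II+ cells. Ages, and a diet for the intima mice, are not given in the sources used here. Layer, genotype, diet, aortic segment and sort gate differed together, so their parts in any difference cannot be told apart. How the 6 mice were divided among the adventitia libraries is not stated, so p-values measure the spread between libraries, which may in part be technical.

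IL-4 binds the IL-4 receptor alpha chain, encoded by Il4ra, which pairs with the common gamma chain or with the IL-13 receptor chain of Il13ra1. The bound receptor activates Janus kinases, which phosphorylate STAT6, and STAT6 dimers enter the nucleus and switch on target genes. Macrophages driven this way are called alternatively activated and are known from helminth infection, allergy, wound repair and fat tissue. In mice their classical markers are Arg1, which encodes the arginine-splitting enzyme arginase 1, Retnla, which encodes the secreted resistin-like protein RELMalpha (Fizz1), and Chil3, which encodes the secreted chitinase-like protein Ym1. Cish and Socs2 encode SH2-domain inhibitors of cytokine receptors that are also known as targets of STAT5.

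Promoter sequences from RefSeq (GRCm38.p6, 250 bases before to 50 after each start) matched 7 of the 9 genes, and those of Retnla, Chil3 and Cish are shown because they hold the letters that STAT dimers are known to bind. The motifs searched were TTCNNNGAA and TTCNNNNGAA, each of which reads alike on both strands, and 8.30% and 6.95% of all 32851 promoters of that length held them. Retnla had 1 match of the longer form, with its first base at -145 from the start, Chil3 1 match of the shorter form at -172, and Cish 2 matches of the shorter form at bases 1 and 12 of the RefSeq transcript. The promoters of Il4ra, Il13ra1, Stat6 and Klf4 held neither motif in this window. Capitals mark the matches. The Retnla sequence is chr16:48842359-48842608 on the plus strand, that of Chil3 chr3:106167565-106167814 on the minus strand, and that of Cish, limited to the matches, chr9:107296659-107296678 on the plus strand.
Retnla: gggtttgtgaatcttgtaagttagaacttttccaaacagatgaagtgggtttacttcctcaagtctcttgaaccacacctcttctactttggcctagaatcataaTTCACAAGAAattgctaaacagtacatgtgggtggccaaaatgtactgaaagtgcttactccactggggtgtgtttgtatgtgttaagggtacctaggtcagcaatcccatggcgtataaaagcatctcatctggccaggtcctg
Chil3: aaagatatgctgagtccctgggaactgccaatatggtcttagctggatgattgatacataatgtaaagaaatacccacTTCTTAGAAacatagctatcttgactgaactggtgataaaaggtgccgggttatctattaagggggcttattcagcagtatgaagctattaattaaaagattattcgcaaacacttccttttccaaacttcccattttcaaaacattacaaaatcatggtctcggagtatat
Cish: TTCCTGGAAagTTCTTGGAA
A C/EBP-type motif, TTNNGNAA or its reverse complement TTNCNNAA, was matched 3 times each in the Retnla and Chil3 promoters, in the former once as TTGCTAAA at -134, next to the STAT-type match. That motif stood in 40.7% of all promoters. A match describes letters only and shows no binding.

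The libraries held 3941381, 10076142 and 10054377 reads in genes for adventitia replicates 1 to 3 and 14970204 and 20806925 for intima replicates 1 and 2. The intima libraries had more reads and fewer detected genes, with a read in 17489 and 16374 genes against 23289 to 25738 in the adventitia. They also differed more from each other. Of 13408 tested genes, 40.3% were at least 4-fold apart between the intima libraries, and 16.8 to 22.4% between pairs of adventitia libraries. All 9 macrophage markers examined were present in every library. Csf1r, the receptor of macrophage colony-stimulating factor, was at 741 to 1589 CPM, Adgre1, which encodes F4/80, at 592 to 1459 CPM and Fcgr1, which encodes CD64, at 115 to 280 CPM. Values in CPM, which scale each count to the library's total of reads in genes, are as deposited, whereas differences, ratios and overlaps between groups use CPM scaled by TMM (trimmed mean of M-values).

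Both receptor chains and Stat6 were read in all 5 libraries at levels that overlapped between the groups. Il4ra (ENSMUSG00000030748, chromosome 7, 125552282 to 125579472) had 532, 1297 and 1431 reads in the adventitia libraries and 719 and 4452 in the intima libraries. These are 135, 129 and 142 CPM against 48.0 and 214 CPM. The adventitia libraries thus lay close together, with intima replicate 1 below and intima replicate 2 above all of them. The log2 difference of Il4ra, intima minus adventitia, was 0.14 with TMM and -0.37 with upper-quartile scaling, and neither passed (for TMM, SE 0.58 and Benjamini-Hochberg adjusted p = 0.929, by the quasi-likelihood test of edgeR). Over all tested genes the median log2 difference itself moved with the scaling, from 0.14 (TMM) to -0.35 (upper quartile) and -0.09 (library size alone), and Il4ra moved along with it. Of the 50-base windows of Il4ra transcripts, 8.44% also occur in Gm44876.

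Il13ra1 (ENSMUSG00000017057, chromosome X, 36112110 to 36171259) had 259, 666 and 1111 reads in the adventitia and 915 and 2310 in the intima. That is 65.7, 66.1 and 110.5 CPM against 61.1 and 111 CPM. One library of each group stood near 111 CPM and the other 3 between 61.1 and 66.1 CPM. The log2 difference was 0.29 with TMM (SE 0.56, adjusted p = 0.828 in edgeR) and -0.20 with upper-quartile scaling.

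Stat6 (ENSMUSG00000002147, chromosome 10, 127642986 to 127660957) had 198, 713 and 662 reads in the adventitia and 722 and 4172 in the intima, or 50.2, 70.8 and 65.8 CPM against 48.2 and 201 CPM. Intima replicate 1 lay beside the lowest adventitia library, and intima replicate 2 above all others. Stat6 had the largest positive log2 difference of the 9 genes, 1.17, which did not pass (SE 0.62, adjusted p = 0.288 in edgeR). Without intima replicate 2 it was 0.023 (adjusted p = 0.984 in edgeR) and without intima replicate 1 it was 1.69 (adjusted p = 0.0686 in edgeR). The exons of Stat6 share 79 bases with Nab2 on the opposite strand, and reads there cannot be assigned without a stated strand setting.

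Klf4 (ENSMUSG00000003032, chromosome 4, 55527143 to 55532466) encodes a zinc-finger factor that is known to act with STAT6 in macrophages and is also expressed in endothelial and smooth muscle cells. It had 479, 2147 and 932 reads in the adventitia and 2611 and 1594 in the intima, or 122, 213 and 92.7 CPM against 174 and 76.6 CPM. The groups overlapped, and the adventitia libraries spread over 2.19-fold and the intima libraries over 2.55-fold. Its log2 difference was 0.09 with TMM (SE 0.56, adjusted p = 0.954 in edgeR), -0.38 by the upper quartile and -0.19 by library size. Intima replicate 1 had the higher Klf4 level, whereas it had the lower level of Il4ra, Il13ra1 and Stat6.

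**Figure D1:**
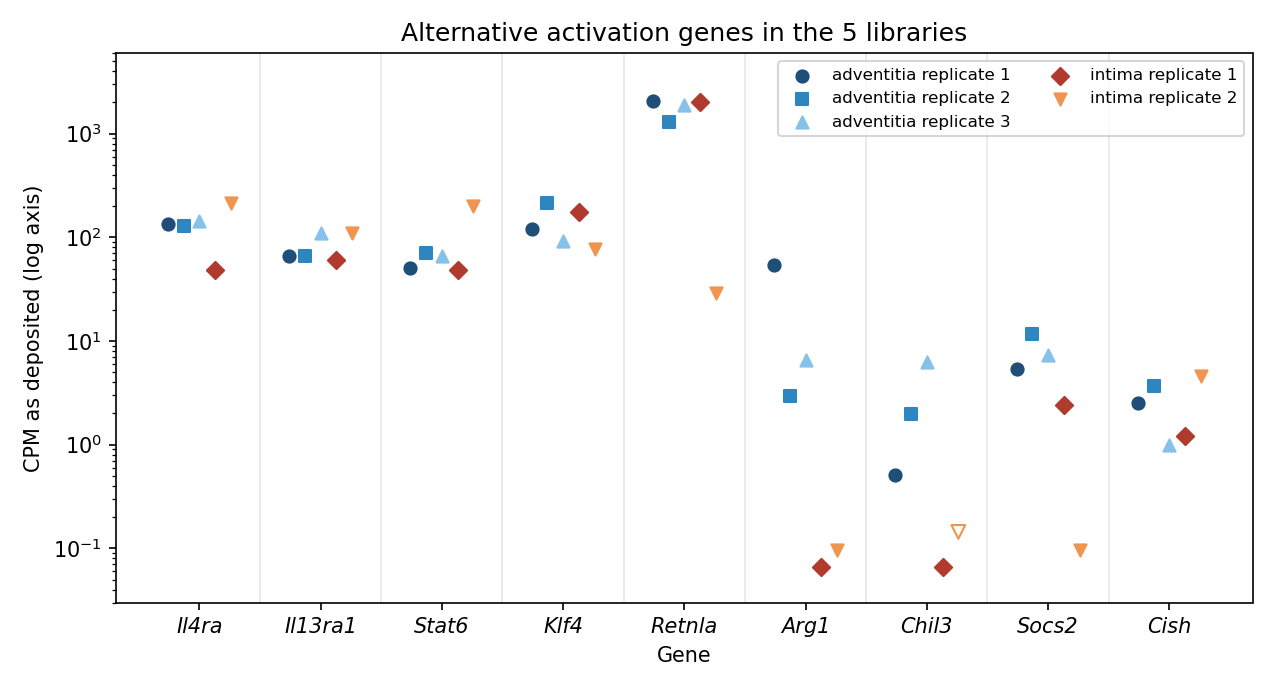
Deposited CPM (log axis) of the 9 genes in each of the 5 libraries, with 1 point per library. The open symbol is a library with no read, drawn at the CPM that 3 reads would give. Retnla stands between 1289 and 2077 CPM in 4 libraries and at 29.3 CPM in intima replicate 2, and Arg1 and Chil3 have at most 2 reads in either intima library.

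Retnla was by far the most abundant of the 9 genes and the one on which the intima libraries disagreed most. The gene (ENSMUSG00000061100, chromosome 16, 48842552 to 48844461), whose promoter is shown above, had 8185, 12989 and 18903 reads in the adventitia libraries, 30355 in intima replicate 1 and 610 in intima replicate 2. Its levels were 2077, 1289 and 1880.1 CPM against 2028 and 29.3 CPM. In deposited CPM intima replicate 1 lay within the adventitia range, and on the TMM scale it lay above it, at 2379 against 1236 to 1892, whereas intima replicate 2 lay far below every other library on both scales. Between the intima libraries the ratio was 77.5 on the TMM scale (95% exact interval 71.5 to 84.1, counting error only) and 69.2 in deposited CPM. Of all tested genes, 530 (3.95%) were as far or further below intima replicate 1 in intima replicate 2. The log2 difference between the groups was -0.44 (SE 1.05, adjusted p = 0.861 in edgeR), and with all 5 libraries it was -2.83 in limma voom and -2.45 with the replicate number as a block, neither of which passed (adjusted p = 0.212 and 0.275). This value stands for neither intima library. Without intima replicate 1 it was -5.87 and passed (adjusted p = 0.00156 in edgeR), and without intima replicate 2 it was 0.63 and did not (adjusted p = 0.260 in edgeR). Each of these fits takes the spread of its 1 intima library from the adventitia. No 50-base window of the Retnla transcript, the length of the reads, occurred in a transcript of another gene.

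Arg1 was read in every adventitia library and nearly absent from the intima. The gene (ENSMUSG00000019987, chromosome 10, 24915208 to 24927470) had 214, 30 and 66 reads in the adventitia and 1 and 2 in the intima. That is 54.3, 2.98 and 6.56 CPM against 0.0668 and 0.0961 CPM. All adventitia libraries lay above both intima libraries, and adventitia replicate 1 was 16.4-fold (95% exact interval 11.2 to 24.9, counting error only) above adventitia replicate 2. Pooled over libraries, the adventitia level was 134 times that of the intima, with a 95% exact interval of 45.6 to 655 that covers counting error only. Without adventitia replicate 1, which held 214 of the 310 reads, that ratio was 50.9 (16.9 to 251), and without adventitia replicate 2 it was 209 (70.8 to 1020). The difference did not pass in edgeR (adjusted p = 0.109) and passed in DESeq2 (adjusted p = 3.27e-05) and in limma voom (adjusted p = 0.0362). With each library left out in turn, the adjusted p in edgeR ran from 0.0691 (without intima replicate 1) to 0.260 (without adventitia replicate 1).

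Chil3 (ENSMUSG00000040809, chromosome 3, 106147554 to 106167564) had 2, 20 and 63 reads in the adventitia and 1 and 0 in the intima, or 0.507, 1.98 and 6.27 CPM against 0.0668 and 0 CPM. The groups did not overlap, yet adventitia replicate 1 was under the 0.761 CPM that 3 reads make in that library, and the 0 in intima replicate 2 allows up to 0.144 CPM. The pooled adventitia level was 111 times that of the intima (95% exact interval 19.3 to 4418, counting error only), and 47.6 times (7.69 to 1964) without adventitia replicate 3, which held 63 of the 85 reads. No test passed, with adjusted p-values of 0.131 in edgeR, 0.0803 in DESeq2 and 0.0731 in limma voom. Of the 50-base windows of Chil3 transcripts, 26.9% also occur in Chil4 or Gm6522, so its count is uncertain. Chil4, which encodes the closely similar protein Ym2, had 6, 2 and 5 reads in the adventitia libraries and none in the intima.

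The feedback inhibitors were low in all libraries. Socs2 (ENSMUSG00000020027, chromosome 10, 95385362 to 95417180) had 21, 118 and 73 reads in the adventitia and 36 and 2 in the intima, or 5.33, 11.7 and 7.26 CPM against 2.40 and 0.0961 CPM. Both intima libraries lay below the adventitia, and they were 28.0-fold apart from each other (95% exact interval 7.21 to 240.2, counting error only). Its log2 difference of -2.40 did not pass (SE 1.90, adjusted p = 0.506 in edgeR), and it was -6.24 without intima replicate 1 and -1.36 without intima replicate 2 (adjusted p = 0.0738 and 0.545 in edgeR). Cish (ENSMUSG00000032578, chromosome 9, 107296026 to 107302784), with the pair of STAT-type matches shown above, had 10, 37 and 10 reads in the adventitia and 18 and 95 in the intima. At 2.54, 3.67 and 0.995 CPM against 1.20 and 4.57 CPM the groups overlapped. The log2 difference was 0.47 with TMM (SE 1.47, adjusted p = 0.899 in edgeR) and -0.038 with upper-quartile scaling. Of the 50-base windows of these genes, 4.58% for Socs2 and 9.35% for Cish also occur in other genes. Cish also shares 261 and 479 exon bases with Gm17040 and Gm17041 on the opposite strand, which had at most 5 reads and no read in any library.

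None of the 9 genes was called in edgeR at an adjusted p under 0.05, where 0.671% of all 13408 tested genes were called, and 2, Arg1 and Chil3, had an unadjusted p under that value, as did 22.4% of all tested genes. DESeq2 called 1, Arg1, and 9.14% of all tested genes. Both intima libraries lay below all adventitia libraries for 3 of the 9 genes, Arg1, Chil3 and Socs2, and for 23.2% of tested genes. They lay above for 0 of the 9 and for 17.7% of tested genes. All 9 passed the filter on low counts. Arg1 and Chil3 did so through their adventitia reads alone, and Socs2, with 36 and 2 intima reads, also needed its adventitia reads. The intima libraries were at least 4-fold apart for 2 of the 9, Retnla and Socs2, against the 40.3% of tested genes given above. In both genes intima replicate 2 was the lower, as for 17.5% of tested genes. Ratios in the other direction were 3.98 for Il4ra, 3.71 for Stat6, 3.39 for Cish and 1.62 for Il13ra1. In deposited CPM the ratios of Il4ra and Stat6 were 4.45 and 4.16, so that 4 of the 9 were at least 4-fold apart, 2 in each direction, and again 40.3% of tested genes.

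**Figure D2:**
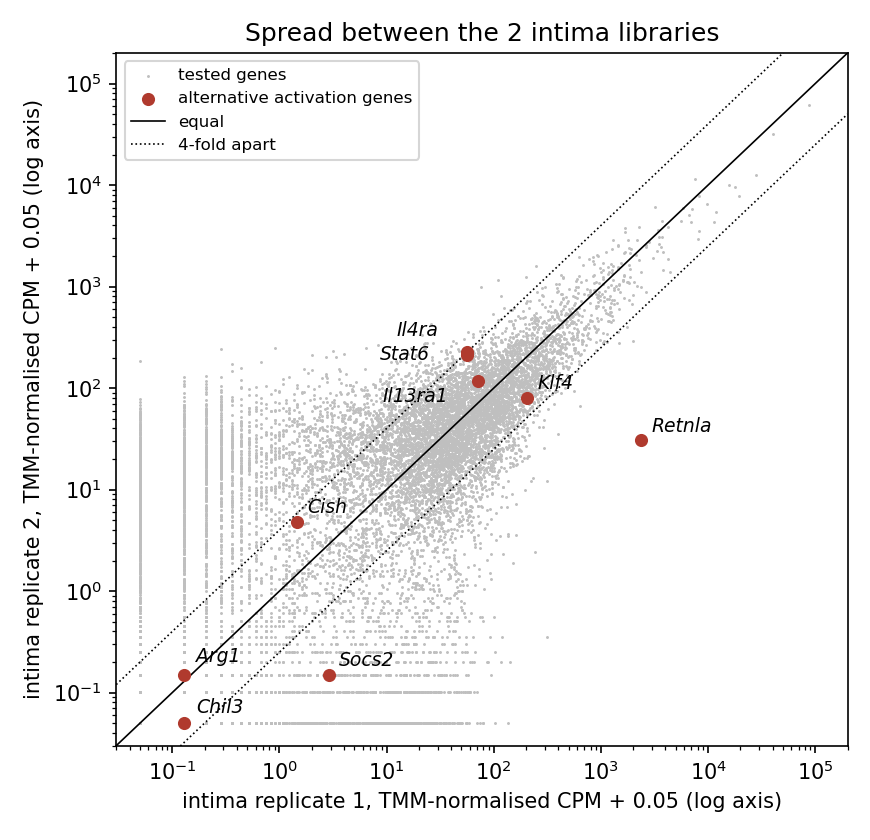
TMM-normalised CPM plus 0.05 in intima replicate 1 (x, log axis) and intima replicate 2 (y, log axis) for the 13408 tested genes (grey) and the 9 alternative activation genes (red), with a solid line for equal levels and dotted lines 4-fold apart. Retnla and Socs2 lie below the lower dotted line, and Il4ra, at 3.98-fold, lies just inside the upper one.

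**Figure D3:**
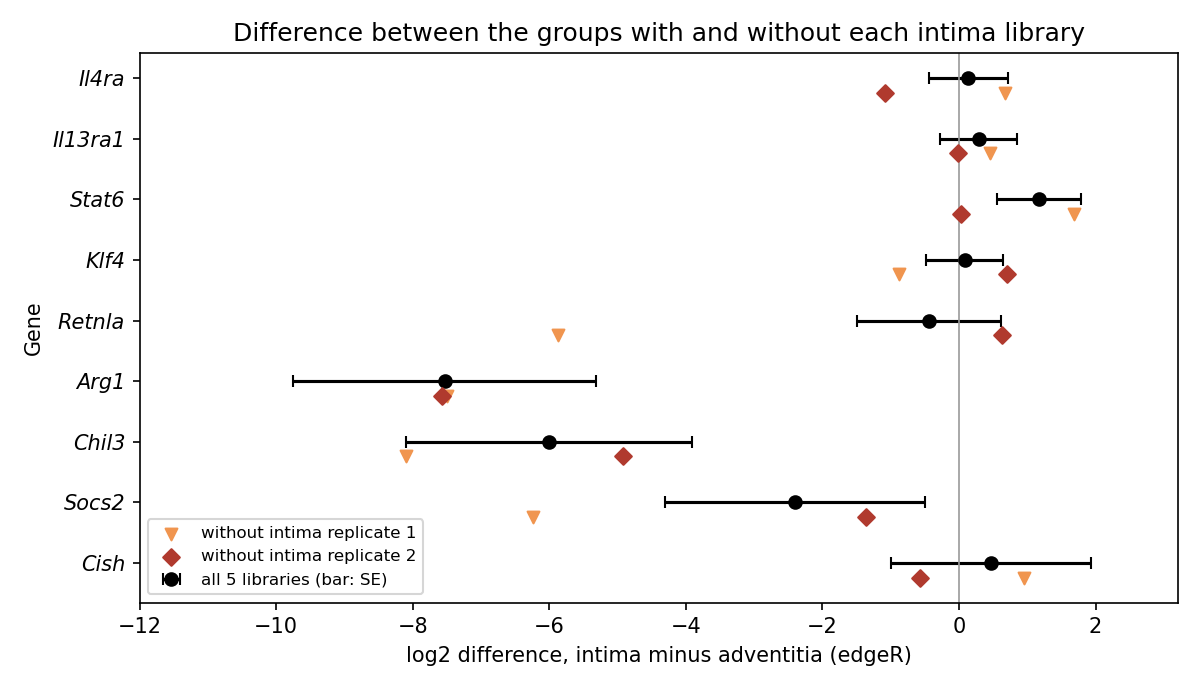
Log2 difference, intima minus adventitia, of the 9 genes in edgeR with all 5 libraries (black, bar: SE) and without each intima library (coloured). The values for Retnla move from -0.44 to -5.87 without intima replicate 1, while those of Arg1 move little without an intima library but were -5.63 without adventitia replicate 1, and rest on 3 intima reads.

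Compared per length, in the deposited RPKM (CPM per kilobase of exon), Retnla had the highest mean level of the 9 in both groups, 2924 RPKM in the adventitia and 1719.9 RPKM in the intima, though only 49.0 RPKM in intima replicate 2. Klf4 came next at 46.7 and 41.2 RPKM. Il4ra at 26.6 and 25.7, Il13ra1 at 21.8 and 23.2 and Stat6 at 14.1 and 28.3 RPKM followed, and their ranges over the libraries overlapped one another. Arg1 had a mean of 14.4 RPKM in the adventitia, set by the 36.8 RPKM of adventitia replicate 1, and of 0.0552 RPKM in the intima. Chil3, Socs2 and Cish had means of 1.79, 0.850 and 0.374 RPKM in the adventitia and 0.0205, 0.131 and 0.449 RPKM in the intima.

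Other genes of the IL-4 pathway and of the families of the 9 genes were read from lists of 68 genes, of which 52 were tested. None was called in edgeR, and 15 had an unadjusted p under 0.05 (22.4% of all tested genes did), 11 of them lower and 4 higher in the intima. DESeq2 called 8, of which 7 were lower, and 9.14% of all tested genes. Among the 7, Ppargc1b, Stat4, Slc7a2 and Retnlg had at most 3 reads in an intima library. They passed the filter on low counts through their adventitia reads alone, so they could be called only as lower. Both intima libraries lay below the adventitia for 12 of the 52 (23.1%) and above for 9 (17.3%), against the 23.2% and 17.7% of all tested genes. The median log2 difference was -0.27, beside 0.14 for all tested genes. The ligands were scarce. Il4 had 4 to 12 reads per adventitia library and 4 and 3 reads in the intima, and Il13 had no read there. Among receptors and kinases Jak1, a kinase of this receptor, was the most abundant, at 274 to 290.2 CPM against 219 and 182 CPM. Il13ra2, the decoy receptor of IL-13, had at most 3 reads in a library. Jak3, the kinase that binds the common gamma chain, had 24 reads in intima replicate 1 but 590 reads, or 28.4 CPM, in intima replicate 2. Of the inhibitors, Ptpn6, which encodes the phosphatase SHP-1, was at 212, 208 and 179 CPM against 353 and 650 CPM. Both intima libraries lay above the adventitia, and the log2 difference of 1.55 (SE 0.41) missed in edgeR (adjusted p = 0.0900) and in DESeq2 (adjusted p = 0.0543).

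The list of transcription regulators held 8 genes, all tested. DESeq2 called 4 of them, 3 lower and 1 higher in the intima, and 9.14% of all tested genes. Cebpb, which encodes the factor C/EBP beta that is known to drive Arg1, stood at 863, 499 and 189 CPM across the adventitia against 54.9 and 8.12 CPM. All adventitia libraries lay above both intima libraries, the log2 difference was -3.69 (SE 0.88), and it missed in edgeR (adjusted p = 0.0868) and passed in DESeq2 (adjusted p = 0.00113). Kdm6b, a histone H3 demethylase and the most abundant of its list, was at 468, 1306 and 702 CPM against 181 and 199 CPM. It was lower by a log2 difference of -1.90 (SE 0.53), which had an adjusted p of 0.0996 in edgeR and 0.0136 in DESeq2. Ppargc1b, a coactivator of metabolic genes, was at 16.7, 4.96 and 4.87 CPM against 0 and 3 intima reads, a pooled ratio of 71.6 (95% exact interval 24.1 to 351, counting error only; adjusted p = 0.139 in edgeR and 0.00121 in DESeq2). Pparg, a lipid-sensing nuclear receptor of IL-4-treated macrophages, went the other way, at 4.57, 13.9 and 14.3 CPM against 52.1 and 60.5 CPM. Its log2 difference, 2.55 with an SE of 0.88, had an adjusted p of 0.127 in edgeR and 0.0235 in DESeq2. Cebpb and Pparg were chosen for naming after their values were seen.

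Of the 8 surface and secreted targets, of which 5 were tested, 3 (Mrc1, Clec10a and Mgl2) had both intima libraries below the adventitia. All 3 were among the 5 tested, and the same held for 23.2% of all tested genes. The other 5 of the 8 overlapped. None was called in edgeR, and DESeq2 called 1 of the 5 tested, Clec10a, with a log2 difference of -1.83 (adjusted p = 0.0370). Of all tested genes DESeq2 called 9.14%. Mrc1, the mannose receptor CD206, was at 3376, 2706 and 2251 CPM against 1087 and 486 CPM, a log2 difference of -1.54 with an SE of 0.50 (adjusted p = 0.115 in edgeR). Ccl17, a chemokine that attracts T cells, had 0, 242 and 304 reads in the adventitia libraries and none in the intima. Pooled, it was at least 237-fold lower there, taking 3 reads over the intima group as the floor, although adventitia replicate 1 had no read either. Among enzymes F13a1, a coagulation transglutaminase, was at 1919, 1237 and 1473 CPM against 551 and 685 CPM (adjusted p = 0.155 in edgeR). Il4i1, an amino acid oxidase, was at 0.695 to 7.06 CPM against 0 and 4 reads. Ch25h, which hydroxylates cholesterol, had a higher mean in the intima, at 23.0 to 68.8 CPM against 174 and 57.1 CPM (adjusted p = 0.146 in edgeR). Its groups overlapped in deposited CPM. On the TMM scale they barely separated, with intima replicate 2 at 59.8 and adventitia replicate 1 at 59.3. Of the genes that handle arginine, Slc7a2, a transporter for it, was at 5.84, 2.48 and 7.06 CPM against 3 and 2 reads (adjusted p = 0.164 in edgeR and 0.0213 in DESeq2), and Slc7a1, another transporter, was at 1.00 and 47.6 CPM in the 2 intima libraries. Nos2, the nitric oxide synthase that competes with arginase for its substrate, never exceeded 1.59 CPM. Ass1, an enzyme that rebuilds arginine, had 2 to 10 reads per adventitia library and 31 and 318 in the intima (adjusted p = 0.219 in edgeR).

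**Figure D4:**
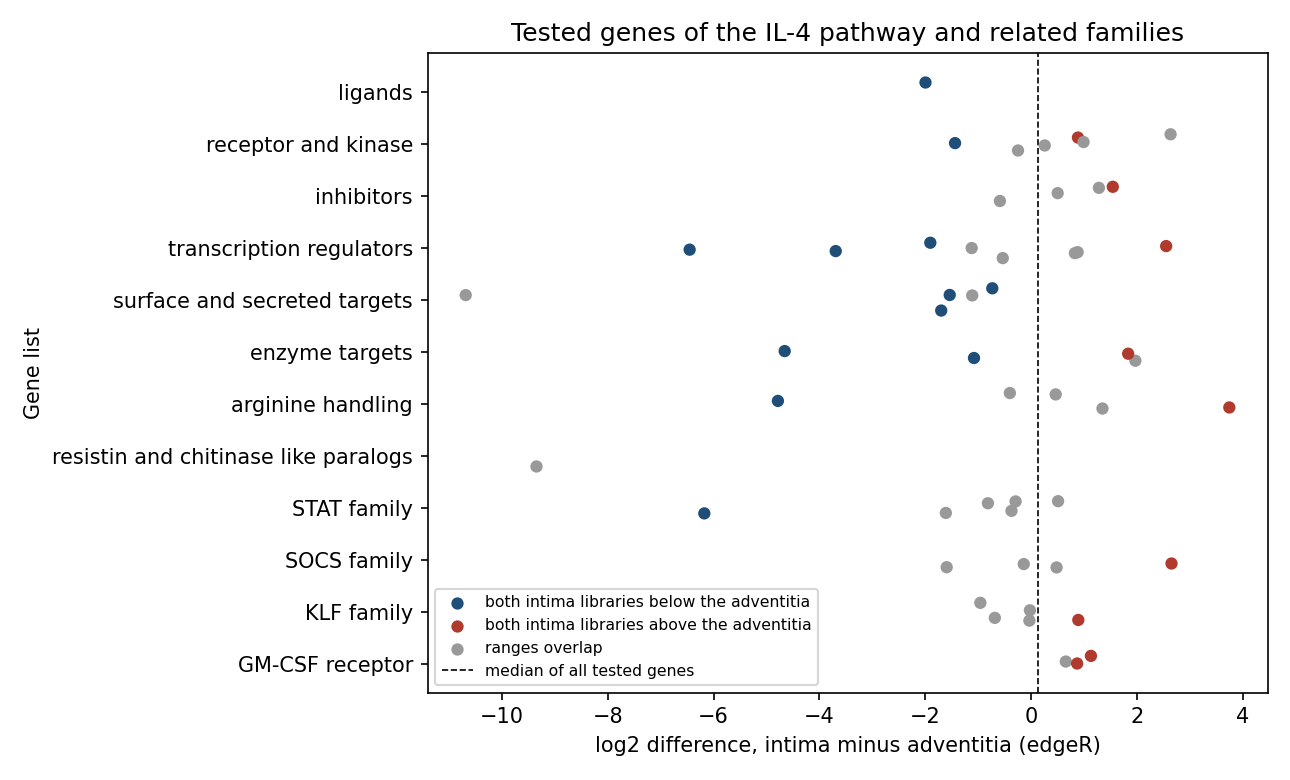
Log2 difference, intima minus adventitia, in edgeR for the 52 tested genes of the pathway and family lists, 1 point per gene, coloured by whether both intima libraries lie below (blue), above (red) or within reach of the adventitia range (grey). The dashed line is the median of all tested genes at 0.14, and no point was called.

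Within the families, the resistin-like and chitinase-like relatives of Retnla and Chil3 were near 0, apart from Retnlg. Retnlg, known from neutrophils, had 60, 86 and 0 reads in the adventitia, or 15.2, 8.54 and 0 CPM. It had no intima read (adjusted p = 0.138 in edgeR and 0.00934 in DESeq2). The other 8 were at 1.52 CPM or less in every library. Of the STAT genes Stat3 was the most abundant, at 91.4 to 237 CPM against 49.6 and 108 CPM, and Stat4 had the largest difference, at 18.5, 1.49 and 10.2 CPM against 1 and 3 reads (adjusted p = 0.141 in edgeR and 0.00111 in DESeq2). Stat5a, one of the 2 STAT5 genes, had 137 reads in intima replicate 1 and 2 in intima replicate 2, and Stat5b, the other, had 492 and 529. Of their known targets, Socs2 had 36 and 2 reads there and Cish 18 and 95. Among the other SOCS genes Socs4 was the most abundant, at 11.3 to 55.3 CPM against 53.4 and 18.4 CPM, and Socs5 had the largest difference, at 1.79 to 7.87 CPM against 12.3 and 41.0 CPM (adjusted p = 0.248 in edgeR). Klf6 led the other KLF genes, at 1879 to 2075 CPM against 1077 and 2239 CPM, and Klf10 differed most, at 149 to 334 CPM against 121 and 88.1 CPM (adjusted p = 0.301 in edgeR). Socs1 was at 2.54 CPM or less in all libraries, and Socs3 at 126 to 204 against 60.6 and 122 CPM. The GM-CSF receptor genes Csf2ra and Csf2rb, which signal through STAT5, were read in all libraries, Csf2ra at 79.6 to 153 CPM against 123 and 180.0 CPM and Csf2rb at 49.3 to 90.1 CPM against 98.5 and 122 CPM. Csf2rb2, a close relative of Csf2rb, had the largest difference of that list, at 23.8 to 33.4 CPM against 53.4 and 51.6 CPM (adjusted p = 0.374 in edgeR).

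Marker genes of other cell types also moved with the groups, and in bulk samples fewer cells of a type and less RNA per cell cannot be told apart. The 6 monocyte markers summed to 515 to 1084 TMM-normalised CPM in the adventitia and 132 and 252 in the intima, led by Ccr2. The 7 dendritic cell markers summed to 199 to 420 against 6.90 and 34.2, of which Cd209a alone had a deposited 201 to 388 CPM in the adventitia and 7 and 8 reads in the intima. The other 6 dendritic markers overlapped in sum, at 6.47 to 29.1 against 6.35 and 33.8, although Flt3, Zbtb46, Xcr1 and Itgae were lower in the intima without overlap and Clec9a was higher, with 74 and 447 reads against 4 to 19. The 6 fibroblast markers summed to 592 to 1435 against 313 and 223. The sum of the 8 endothelial markers was higher in the intima, at 656 and 728 against 30.7 to 45.1. So was that of the 6 smooth muscle markers, at 310 and 80.6 against 2.38 to 8.10. Of the 8 endothelial genes, 5 were higher and 1, Kdr, was lower in the intima without overlap. Cldn5 had no read in intima replicate 1 and Erg none in intima replicate 2. Of the smooth muscle genes, Acta2 and Tagln were higher and Myh11 and Des lower without overlap. Monocyte and fibroblast sums and Cd209a were lower in the intima, as were Arg1, Chil3 and Socs2. In adventitia replicates 1 to 3 the monocyte sum was 515, 1084 and 921. On the same scale Arg1 was at 46.8, 2.85 and 6.61, Chil3 at 0.438, 1.90 and 6.30 and Socs2 at 4.59, 11.2 and 7.31. No relation of these genes to the monocyte sum was tested. The part of these cells in the differences between the groups was not tested. For Chil3, which monocytes and neutrophils also express, the neutrophil markers summed to 51.4 to 96.7 in the adventitia and to 5.49 and 106 in the intima, with S100a8 at 207 to 228 reads against 1 and 21. Ly6g and Ltf, at 2 to 5 adventitia reads, were at 0 in the intima, whereas S100a9, Cxcr2 and Csf3r had 0, 0 and 66 reads in intima replicate 1 and 473, 365 and 1244 in intima replicate 2. Eosinophil markers, of cells that make IL-4, summed to 10.1 to 24.9 against 0.314 and 5.19, mostly from Ear2. Prg2 and Ccr3, with 1 to 15 adventitia reads, were at 0 in the intima, and Ear1 was at 0 in all 5 libraries. Epx had 2 to 4 adventitia reads and 0 and 3 in the intima. Siglecf had 1 to 9 adventitia reads and 3 and 1 in the intima, where the groups overlapped. In intima replicate 2, where Retnla was low, the 8 markers of T and innate lymphoid cells summed to 113, against 46.5 in intima replicate 1 and 18.8 to 76.1 in the adventitia, and Cd3e had 243 reads against 0 in intima replicate 1. The part of these cells in the Retnla values was not tested.

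The genes whose course over the 5 libraries was most like that of each of the 9 were found by the smallest root mean square difference of centred log2 CPM among 6500 genes. For Retnla these were Ccnd3 and Msantd4, at 0.26 and 0.28, which fell to 0.0504 and 0.252 TMM-normalised CPM in intima replicate 2 from 28.1 and 55.6 in intima replicate 1. For Arg1 they were Oard1 (0.73) and Gpt2 (0.80), for Chil3 Aoah (0.41) and Sgcb (0.59) and for Socs2 Sik1 (0.28) and Cyth1 (0.33). Closer matches were found for Stat6, with Ank (0.057) and Wdr1 (0.12), and for Il13ra1, with Med8 (0.088) and Cln3 (0.11). Il4ra was nearest to Cfp (0.13) and Ado (0.14), Klf4 to Snapc5 (0.16) and Rock1 (0.17) and Cish to Atl3 (0.13) and Gpr107 (0.14). These are descriptions over 5 libraries only.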

How the data were processed

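Poly-A RNA of sorted cells was amplified with the SMARTer Ultra Low kit and read as single 50-base reads, per the labels' protocols. The submitters' processing notes name GRCm38, STAR 2.0.4b, Subread and featureCounts 1.4.5, without roles, and the annotation release and strandedness are not given in the sources used here. Deposited counts were whole reads for 41388 gene IDs. The authors' CPM and RPKM values matched those recomputed from the counts (0 mismatches, tolerance 1e-06). Symbols were found for 40254 IDs.

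Counts were tested with edgeR 4.0.16 (quasi-likelihood, filterByExpr, TMM, no covariates) in R 4.3.3 over all genes, with Benjamini-Hochberg adjustment and calls under 0.05. The SE is the log2 difference over the root of F. DESeq2 1.42.0 and limma 3.58.1 (voom) were alternatives, as were other scalings, filters, thinning, a replicate block and leaving out libraries. The test was tested on simulated data with the same spread for all genes and libraries. The intima libraries here differed more from each other than the adventitia libraries, so that run says little about these data. Exact 95% intervals (Poisson, or conditional binomial for ratios) and the floor of 3 reads cover counting error alone, because amplified reads with no molecular identifiers are not independent. Ratios between intima libraries over all genes added 0.5 reads. Windows of 50 bases came from GENCODE M21 transcripts on both strands. Python 3.11.15, pandas 2.3.3, scipy 1.17.1 and matplotlib 3.10.9 were used.

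The 9 genes and the lists were chosen with earlier results of these data known. Named genes were the 9, the most abundant and most different tested gene of each pathway list, leading markers, the 2 genes most like each of the 9 (average log2 CPM of at least 4, pseudocount 0.5), and others named after their values were seen.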

Additional observations from a re-analysis of the deposited data

How the results depend on the processing

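The number of called genes was 90 in edgeR and 1225 in DESeq2, 839 in limma voom, 386 with every gene that had a read, 396 with a filter of 1 CPM in all libraries of a group, and 10 to 389 with a library left out. The split was 70 higher and 20 lower in edgeR, 46 and 29 by the upper quartile, 59 and 34 by library size, 500 and 725 in DESeq2, 214 and 625 in limma voom, and 135 and 261 with the 1 CPM filter. Of the 9 genes 0 were called in edgeR, 1 (Arg1) in DESeq2 and 1 (Arg1) in limma voom, and 0 to 1 with a library left out, the 1 being Retnla without intima replicate 1. Of the pathway genes 0 were called in edgeR, 8 in DESeq2, 3 in limma voom, 3 with every gene that had a read, 1 with the 1 CPM filter, and 0 to 4 with a library left out. With the replicate block 183 genes, 0 of the 9 and 1 pathway gene (Cebpb) were called. In the sample labels, libraries of the 2 groups share only a replicate number. Deviations from the group means correlated at 0.035 between the libraries numbered 1 and 0.0057 between those numbered 2. With 2 intima libraries the deviations mirror each other, so these values are not independent. Whether libraries shared a batch was not tested.

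Arg1, Chil3, Stat6 and Socs2 kept their sign under every alternative in which they were tested. Chil3 was not tested with the 1 CPM filter or without adventitia replicate 2 or 3. For genes near 0 the sign of the log2 difference turned. Il4ra was at -0.37 by the upper quartile, -0.050 by library size, -0.055 in DESeq2, -0.10 in limma voom, -0.071 with the 1 CPM filter, -0.33 with counts thinned to the smallest library and -0.091 with the replicate block. Klf4 was at -0.38, -0.19, -0.028, -0.082, -0.053, -0.26 and -0.19 in the same order. Il13ra1 was at -0.20 with upper-quartile scaling and -0.13 with thinned counts, and Cish at -0.038 with upper-quartile scaling and -0.083 with the replicate block. With libraries left out, Il4ra ran from -1.09 to 0.68, Il13ra1 from -0.017 to 0.61, Klf4 from -0.88 to 0.70, Retnla from -5.87 to 0.63 (-2.83 in limma voom and -2.45 with the block), Arg1 from -8.10 to -5.63 and Cish from -0.57 to 0.96. None of the values whose sign had turned passed; of the others, Retnla at -5.87 did. The causes were not tested. Arg1 and Chil3 rest on 3 and 1 intima reads.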
